A study of Mus musculus with 18 samples.

Results

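The genes described here are 39 interferon-stimulated antiviral genes of the mouse, taken by their gene symbol from a table of 53342 genes. Each of the 39 symbols was found once, and no measured value entered their choice, although earlier results of the same libraries were known when they were chosen. The groups were Neuro-2A cells, primary astrocytes and BV-2 cells, each transfected at 25 nM for 24 h with mimics of miR-99b-3p, miR-140-5p and miR-199a-3p together (the mix arm) or with a mimic of the worm microRNA cel-miR-67 (the control mimic arm). Neuro-2A is a mouse neuroblastoma line and BV-2 an immortalised mouse microglial line. All 6 groups had 3 libraries of poly(A) RNA, which gave 18 in all, and every one of them came from transfected cells, so the control mimic arm is not an unstimulated state. The study sought the targets of the 3 microRNAs in neural cells.

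Interferon-stimulated genes are switched on when a type I interferon binds its receptor, made of the chains Ifnar1 and Ifnar2, and the receptor's kinases activate transcription factors. A complex that holds Stat2 and Irf9 then enters the nucleus and binds a short promoter element, the interferon-stimulated response element. The proteins made from these genes detect viral RNA, block its translation, degrade it, or stop viral entry and release. Cells also raise these genes when foreign RNA is sensed inside them, through helicases such as RIG-I that lead to the making of interferon-β.

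A microRNA recognises messages mainly through its seed, bases 2 to 8. The mature sequences below, from RefSeq on GRCm38.p6, are the native ones and are shown because the 3′ UTRs were searched for their seeds, which are in capitals. The mimics were custom made, and their own sequences were not used here.

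miR-199a-3p (chr1:162217883-162217904, + strand, and chr9:21496498-21496519, − strand): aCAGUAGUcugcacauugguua

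miR-99b-3p (chr17:17830232-17830253, + strand): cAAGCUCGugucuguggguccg

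Sites were searched for miR-199a-3p and miR-99b-3p and for no other microRNA of the mix. A site was the complement of the whole seed, either followed by an A (an 8mer) or not (a 7mer-m8), in the longest annotated 3′ UTR of the gene. Among the 39 genes, 4 (10.3%) had a site for miR-199a-3p, against 8.36% of the 21025 genes of the table with a 3′ UTR. None had a site for miR-99b-3p, against 2.01% of those genes. The median 3′ UTR was 1152 nt long for the 39 genes and 1091 nt over the table. The sites of Dtx3l, Eif2ak2 and Oasl2 are given on mm10 with the flanking bases, and the capitals mark the site.

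Dtx3l (chr16:35927816-35927822, − strand, exon 5, 3′ UTR, 7mer-m8): gatactgtgtgACTACTGcctgactcaag

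Eif2ak2 (chr17:78854140-78854146, − strand, exon 16, 3′ UTR, 7mer-m8): ccaacaataccACTACTGgtcatataccc

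Oasl2 (chr5:114911268-114911274, + strand, exon 5, 3′ UTR, 7mer-m8): gaggatcaggtACTACTGttggatgatga

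The promoters of the group were also read, from 250 bases before to 50 bases after the start given by RefSeq on GRCm38.p6, where 29 of the 39 genes were matched. The core of the interferon-stimulated response element was searched as GAAANNGAAA on both strands. It was present in 14 of the 29 genes (48.3%), against 3.99% of 27025 genes with a promoter in the same windows. The promoters of Isg15, Ifit3 and Cd274 are shown because they hold 3, 2 and no copies of the core, which is in capitals.

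Isg15 (chr4:156200769-156201068, − strand): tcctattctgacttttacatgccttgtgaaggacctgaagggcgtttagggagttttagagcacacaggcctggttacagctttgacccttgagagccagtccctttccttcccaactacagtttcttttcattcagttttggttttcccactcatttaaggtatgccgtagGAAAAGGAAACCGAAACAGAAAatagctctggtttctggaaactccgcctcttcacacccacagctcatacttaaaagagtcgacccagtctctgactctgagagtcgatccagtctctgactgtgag

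Ifit3 (chr19:34583279-34583578, + strand): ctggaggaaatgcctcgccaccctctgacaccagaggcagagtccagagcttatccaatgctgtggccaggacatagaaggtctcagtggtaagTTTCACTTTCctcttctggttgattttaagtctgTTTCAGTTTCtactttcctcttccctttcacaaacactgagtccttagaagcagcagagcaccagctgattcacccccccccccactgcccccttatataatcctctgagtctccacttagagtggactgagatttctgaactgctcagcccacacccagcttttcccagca

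Cd274 (chr19:29367188-29367487, + strand): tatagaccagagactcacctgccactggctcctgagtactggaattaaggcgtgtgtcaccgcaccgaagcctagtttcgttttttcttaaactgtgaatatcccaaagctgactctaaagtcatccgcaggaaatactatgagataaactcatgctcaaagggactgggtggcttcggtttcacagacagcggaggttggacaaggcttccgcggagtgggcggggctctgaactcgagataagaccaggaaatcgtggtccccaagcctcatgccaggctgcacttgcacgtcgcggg

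The 3 matches in the Isg15 promoter began 78, 72 and 66 bases before the start and overlapped one another, while those of Ifit3 began 156 and 122 bases before it. A match is a description of these letters and was not tested for binding.

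Levels are given as TPM, a transcript abundance scaled for gene length and library total, so that genes and libraries can be set side by side. Library totals ranged from 18.5 to 27.9 M counts. Effects are log2 fold changes of the mix arm over the control mimic arm with their standard error (SE), from edgeR's quasi-likelihood test on counts with TMM scaling, fitted over all genes of a cell type and adjusted by the Benjamini-Hochberg method with a threshold of 0.05. A log2 fold change can differ slightly from the ratio of the TPM, since TPM have no TMM scaling: on log2(TPM + 1) the median of all tested genes was 0.06 in astrocytes and 0.05 in BV-2. The labels do not say whether the libraries of a group came from separate cultures, so the p-values measure the spread between these libraries, which may be technical. Related genes, such as Ifit3 and Ifit3b or Oas1a and Oas1b, can share reads, which was not measured, so their separate values are uncertain.

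The cell types were checked by their markers. In Neuro-2A, 7 of 8 neuronal markers exceeded 1 TPM, led by Tubb3 at a mean of 542 TPM, and the 12 microglial markers summed to 3.05 to 3.79 TPM in the mix arm and 3.21 to 3.95 TPM in the control mimic arm. In BV-2, all 12 microglial markers exceeded 1 TPM, led by Cd68 at 1824 TPM. In the astrocyte cultures all 8 astrocyte markers exceeded 1 TPM, led by Gfap at 5294 TPM. These cultures also held all 12 microglial markers, all 8 of the oligodendrocyte lineage and all 6 of ependymal cells above 1 TPM. Of the fibroblast and pericyte markers 6 of 8 exceeded 1 TPM, and of the neuronal markers 5 of 8, led by Gap43 at 102 TPM.

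In the control mimic arm the interferon-stimulated genes were highest in astrocytes, intermediate in BV-2 and lowest in Neuro-2A. Their mean TPM summed to 21630 in astrocytes, 6953 in BV-2 and 534 in Neuro-2A, and the median gene had 204, 117 and 4.23 TPM in that order. All 39 were higher in astrocytes than in Neuro-2A, against 49.1% of the 19570 genes tested. All 39 were also lower in Neuro-2A than in BV-2, against 35.5% of the genes tested. Genes too low to be tested within Neuro-2A entered both comparisons through the cell types where they were higher. Between astrocytes and BV-2, 30 were higher in astrocytes and 6 lower, against 49.7% and 36.7% of the genes tested.

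The 6 genes with a higher level in BV-2 were Oas1a, Oas2, Oas3, Oasl1, Trim25 and Samhd1. The largest of these differences was that of Oas3, a synthetase of oligoadenylates that activate RNase L: its control mean was 11.6 TPM in astrocytes and 154 TPM in BV-2, a log2 difference of −3.74 ± 0.08 (SE). The levels of Adar, Rsad2 and Ifi35 did not differ beyond their spread between astrocytes and BV-2, with log2 differences of 0.05 ± 0.05, 0.40 ± 0.21 and 0.14 ± 0.11. In Neuro-2A, 11 of the 39 genes were under 1 TPM and none reached 100 TPM, whereas 31 reached 100 TPM in astrocytes and 21 in BV-2. Zbp1, a sensor of Z-form nucleic acids, was the single one under 1 TPM in BV-2.

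**Figure D1:**
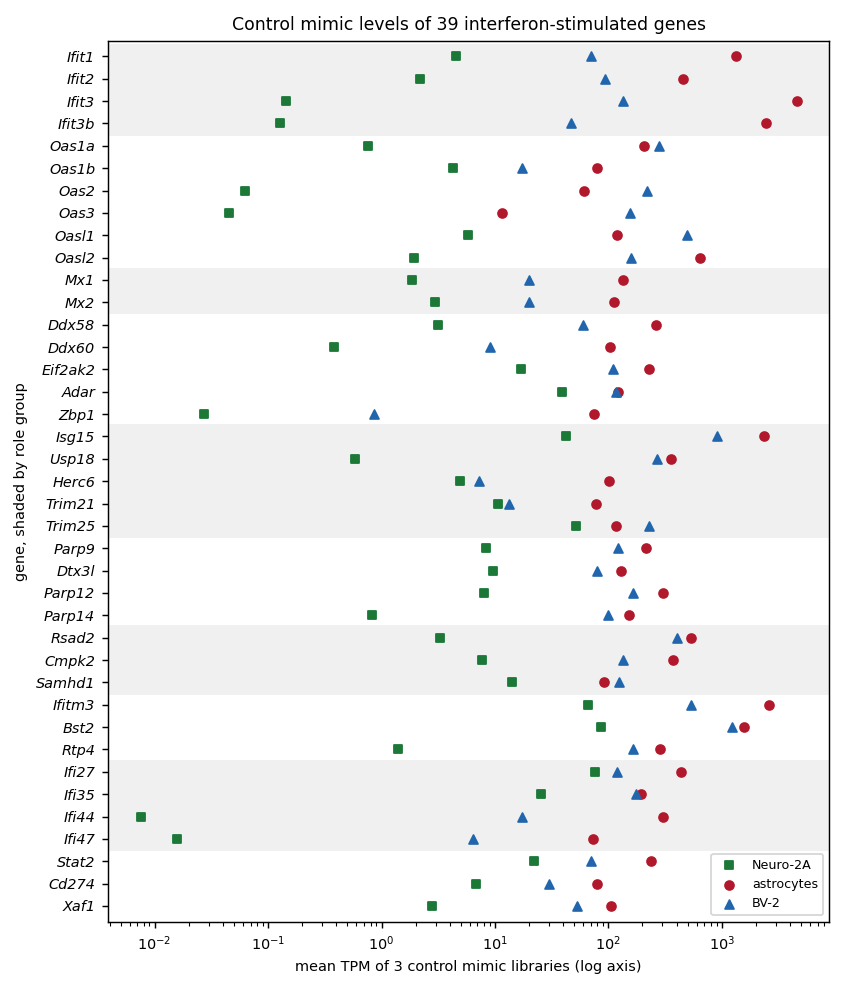
Mean TPM of the 3 control mimic libraries (horizontal, log axis) of each of the 39 genes (vertical, shaded by role group) in Neuro-2A (squares), astrocytes (circles) and BV-2 (triangles). The squares lie left of the other symbols for all 39 genes, and Ifit3 in astrocytes has the highest value, 4570 TPM.

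In astrocytes nearly the whole group was lower with the mix. Of the 39 genes, all of which were tested, 37 fell and none rose, against 20.6% lower and 19.7% higher among the 17770 genes tested. All 39 log2 fold changes were below 0, so no gene was higher at an unadjusted p under 0.05 either. Their median was −0.67, against 0.0077 over all tested genes. In the same 37 genes every mix library lay below every control mimic library in TPM, which was so for 17.9% of the genes tested. The summed TPM of the group was 15391, 15845 and 14688 in the mix libraries, against 21663, 21975 and 21253 TPM in the control mimic libraries, a mean that was 29.2% lower with the mix. These are bulk cultures, in which fewer cells of a type and less RNA per cell cannot be told apart.

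**Figure D2:**
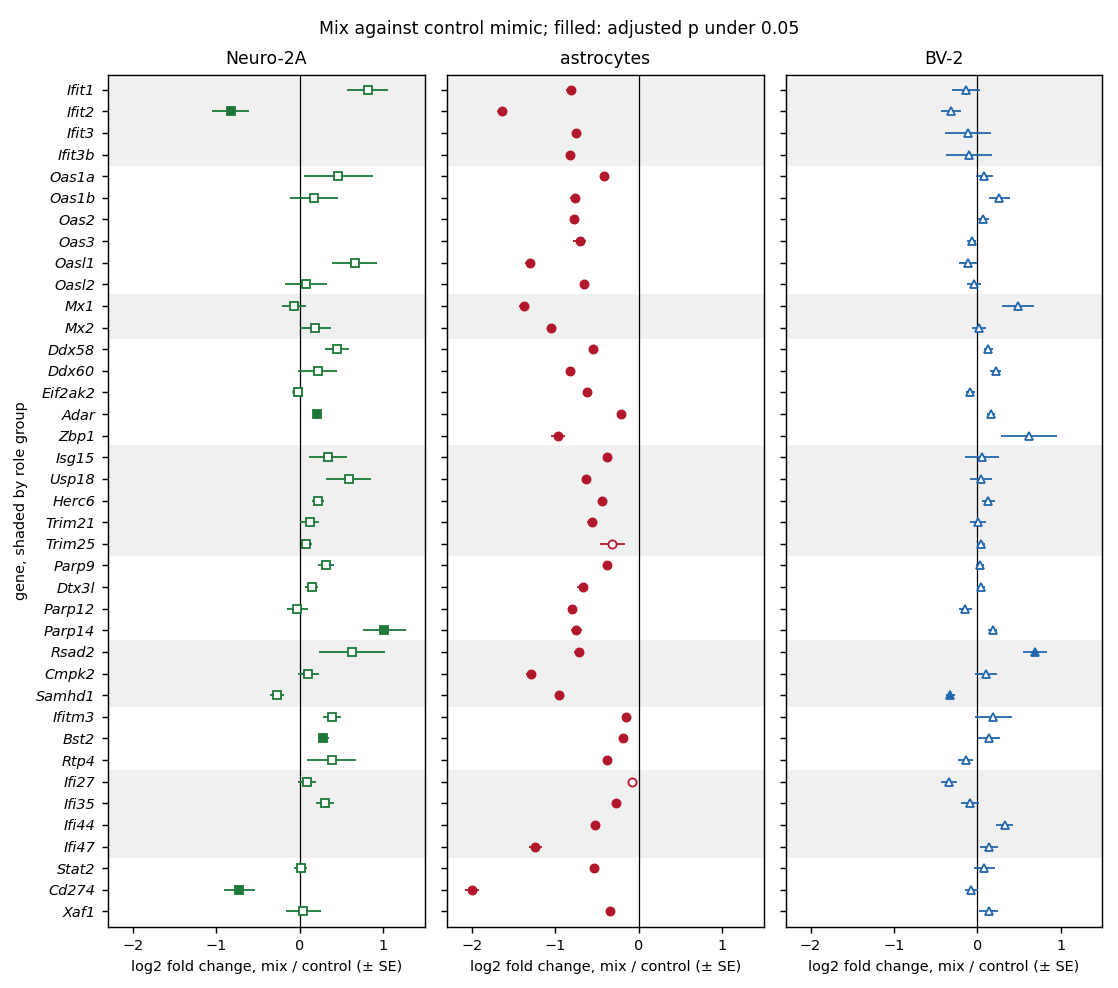
Log2 fold change of the mix over the control mimic ± SE (horizontal) of each gene (vertical, shaded by role group) in Neuro-2A (left), astrocytes (middle) and BV-2 (right). Filled symbols have an adjusted p under 0.05; all 39 astrocyte values lie left of 0, while the Neuro-2A and BV-2 values lie on both sides, and 7 genes too low to be tested in Neuro-2A have no symbol there.

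Transcripts of the IFIT proteins, which bind viral RNA and hold back its translation, all fell in astrocytes. Ifit2 had 156, 166 and 135 TPM in the mix libraries, against 469, 468 and 431 TPM in the control mimic libraries (log2 fold change −1.64 ± 0.06, adjusted p = 1.4e-09). Ifit3, the most abundant gene of the group in astrocytes, had 2875, 2999 and 2675 TPM with the mix, against 4704, 4538 and 4468 TPM with the control mimic (−0.74 ± 0.04, adjusted p = 2.3e-08). Its neighbour on chromosome 19, Ifit3b, had 1456, 1531 and 1354 TPM, against 2492, 2455 and 2366 TPM (−0.82 ± 0.04, adjusted p = 1.5e-08). The arms were separate for all 3, and Ifit1 fell to a similar degree (−0.82 ± 0.05).

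All 6 OAS genes fell, with log2 fold changes between −1.30 and −0.41. Oasl1, which in mouse restrains the translation of Irf7, had 52.1, 53.7 and 46.7 TPM with the mix, against 118, 131 and 111 TPM with the control mimic (−1.30 ± 0.06, adjusted p = 9.8e-09). The smallest change of the family was that of Oas1a (−0.41 ± 0.04). Both Mx GTPases, which trap viral nucleocapsids, fell without overlap between the arms. Mx1 had 54.8, 58.4 and 49.5 TPM, against 127, 145 and 133 TPM (−1.38 ± 0.06, adjusted p = 3.8e-09). Mx2 had 54.5, 61.8 and 54.9 TPM, against 105, 117 and 116 TPM (−1.05 ± 0.05, adjusted p = 2.2e-08).

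The 5 genes of RNA sensing and editing all fell. Ddx60, a helicase, had 57.7, 64.9 and 61.2 TPM with the mix, against 100.1, 105 and 107 TPM with the control mimic (−0.82 ± 0.04, adjusted p = 2.5e-08). Zbp1 changed more (−0.96 ± 0.08), and Eif2ak2, the kinase PKR that halts translation on double-stranded RNA, and Ddx58, the RNA sensor RIG-I, changed less (−0.61 ± 0.05 and −0.54 ± 0.04). The change of Adar, which edits adenosine to inosine in double-stranded RNA, was among the smallest of the 37 (−0.21 ± 0.04, adjusted p = 0.00078).

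Isg15, a ubiquitin-like modifier, and its machinery changed moderately, with 4 of 5 genes lower. Usp18, the protease that removes Isg15 and damps the interferon receptor, had 239, 252 and 226 TPM with the mix, against 350.1, 359 and 352 TPM with the control mimic (−0.63 ± 0.04, adjusted p = 7.5e-08). Isg15 itself had 1894, 1919 and 1842 TPM, against 2279, 2424 and 2360.5 TPM (−0.38 ± 0.03, adjusted p = 1.4e-06). Herc6, the ligase for Isg15 in mouse, and Trim21, a cytosolic antibody receptor, also fell (−0.43 ± 0.04 and −0.56 ± 0.05). Trim25, a ubiquitin ligase that acts on RIG-I, did not pass the test: it had 124, 95.4 and 74.3 TPM, against 138, 115 and 97.5 TPM, and the arms overlapped (−0.31 ± 0.15, adjusted p = 0.11). Trim25 passed when mix replicate 1 was left out (−0.51, adjusted p = 0.0069) or control replicate 3 was (−0.44, adjusted p = 0.040). Without the filter on low counts it also passed (−0.32, adjusted p = 0.00024). With the replicate number as a block, a pairing the labels do not state, it was lower as well (−0.33, adjusted p = 1.1e-06).

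All 4 genes of the PARP group fell. Parp12, an ADP-ribosyltransferase, had 183, 191 and 177 TPM with the mix, against 307, 309.6 and 299 TPM with the control mimic (−0.79 ± 0.03, adjusted p = 4.8e-09). Dtx3l and its partner Parp9, which form a ubiquitin ligase complex, fell by different amounts (−0.67 ± 0.06 and −0.38 ± 0.05), and Parp14 resembled Parp12 (−0.75 ± 0.07).

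The 3 genes of nucleotide metabolism fell. Cmpk2, a mitochondrial nucleotide kinase, had 159, 174 and 143 TPM with the mix, against 377, 386 and 349 TPM with the control mimic (−1.29 ± 0.06, adjusted p = 6.5e-09). Samhd1, which hydrolyses deoxynucleotides, had 50.6, 52.3 and 46.9 TPM, against 92.2, 95.6 and 89.1 TPM (−0.95 ± 0.04, adjusted p = 4.8e-09). Rsad2, or viperin, which makes a nucleotide that ends RNA chains and lies beside Cmpk2 on chromosome 12, had 339, 371 and 309 TPM, against 528, 559.6 and 518 TPM (−0.72 ± 0.05, adjusted p = 4.1e-07). The arms of each were separate.

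Genes that restrict viruses at membranes changed least. Ifitm3, which blocks the fusion of viral and endosomal membranes, had 2382, 2466 and 2452 TPM with the mix, against 2518, 2645 and 2606 TPM with the control mimic (−0.15 ± 0.03, adjusted p = 0.0023). Bst2, or tetherin, which holds budding virions at the cell surface, had 1430.2, 1423 and 1433 TPM, against 1501, 1599.6 and 1565 TPM (−0.19 ± 0.03, adjusted p = 0.0006). The change of Rtp4, a receptor transporter protein, was larger (−0.37 ± 0.03). Among the IFI genes, Ifi47, an immunity-related GTPase, had 32.1, 36.7 and 27.4 TPM, against 73.5, 76.2 and 68.0 TPM (−1.24 ± 0.08, adjusted p = 1e-07). Ifi44 and Ifi35 fell by less (−0.53 ± 0.04 and −0.27 ± 0.03). Ifi27 did not pass, with 412, 428 and 441 TPM, against 433, 419 and 446 TPM, and overlapping arms (−0.08 ± 0.04, adjusted p = 0.11). Without mix replicate 3 it passed (−0.11, adjusted p = 0.049), and so it did with the replicate number as a block (−0.08, adjusted p = 0.021).

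The gene with the largest fall was Cd274, which encodes the checkpoint ligand PD-L1. It had 19.2, 24.9 and 18.03 TPM in the mix libraries, against 75.0, 83.0 and 79.5 TPM in the control mimic libraries (−1.99 ± 0.08, adjusted p = 4.2e-09), and every mix library lay below every control mimic library. Stat2, a subunit of the factor that binds the response element, and Xaf1, a promoter of apoptosis, fell as well (−0.54 ± 0.04 and −0.34 ± 0.03).

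Across the 39 genes in astrocytes, 7 fell by 1 or more on the log2 scale and 27 by 0.5 or more. The log2 fold change was weakly related to the level: Spearman's rho between it and the mean control TPM was 0.26 over the 39 genes, which share the same libraries. As all 39 values are below 0, the positive sign means somewhat smaller falls at higher levels. The 14 genes with a response element core in the promoter had a median log2 fold change of −0.59 and a range of −0.82 to −0.15. The 15 genes whose promoter held none had a median of −0.67 and a range of −1.99 to −0.21.

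**Figure D3:**
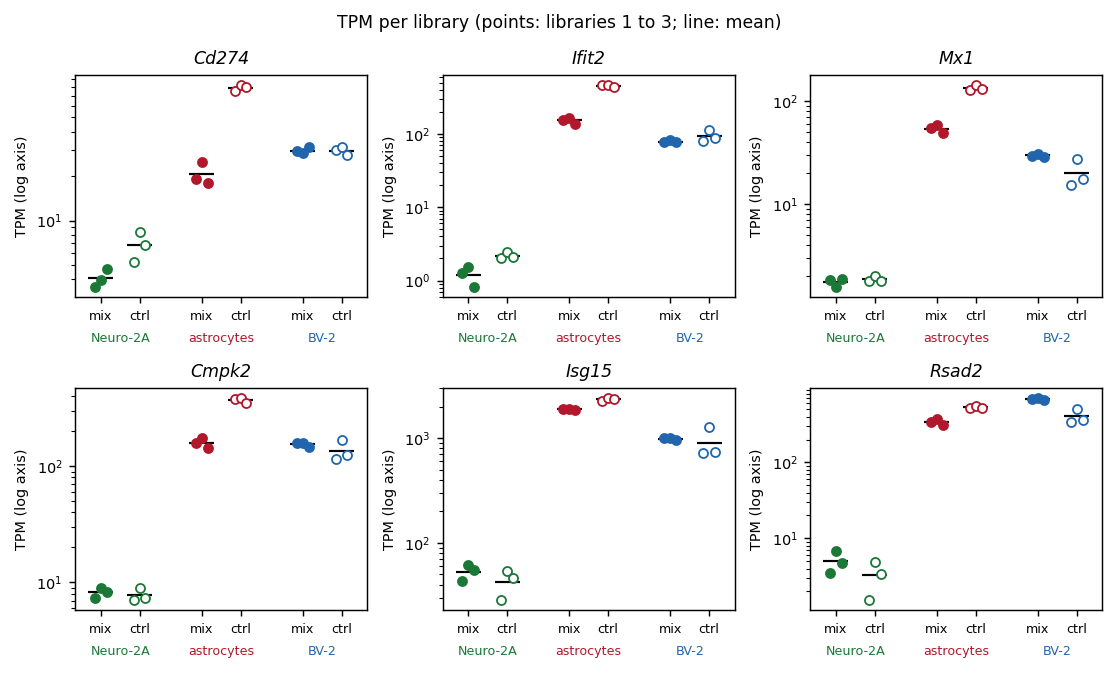
TPM (vertical, log axis) of Cd274, Ifit2, Mx1, Cmpk2, Isg15 and Rsad2 in each library of Neuro-2A, astrocytes and BV-2, with the mix (filled) left of the control mimic (open) and a line at each mean. In astrocytes the mix points of each gene lie below the control points, in Neuro-2A this is seen for Cd274 and Ifit2, and in BV-2 the Rsad2 and Mx1 mix points lie above the control points.

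In Neuro-2A few genes passed when the replicate number was not used as a block, and levels were low throughout. Of 32 genes tested, 2 fell and 3 rose, against 7.88% lower and 5.01% higher among the 16160 genes tested, and 27 did not pass. The median log2 fold change was 0.20, against 0.0059 over all tested genes, with 26 of the 32 above 0 and 6 below. The 7 genes too low to be tested, Ifit3, Ifit3b, Oas2, Oas3, Zbp1, Ifi44 and Ifi47, all had means under 1 TPM in both arms.

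Cd274 fell in Neuro-2A, with 3.55, 3.98 and 4.67 TPM in the mix libraries, against 5.23, 8.37 and 6.83 TPM in the control mimic libraries (−0.73 ± 0.19, adjusted p = 0.042). Ifit2 fell as well, with 1.26, 1.54 and 0.815 TPM, against 2.05, 2.43 and 2.07 TPM (−0.83 ± 0.22, adjusted p = 0.048). The arms did not overlap for either gene. The 3 genes that rose came from different role groups. Parp14 had 1.38, 1.85 and 1.67 TPM with the mix, against 0.512, 1.14 and 0.824 TPM with the control mimic (1.01 ± 0.26, adjusted p = 0.04). Adar had 45.0, 43.0 and 44.7 TPM, against 38.8, 39.4 and 38.5 TPM (0.20 ± 0.05, adjusted p = 0.026). Bst2, the most abundant of the group in these cells, had 101, 102 and 106 TPM, against 80.1, 85.0 and 92.0 TPM (0.28 ± 0.07, adjusted p = 0.038). The next most abundant genes did not pass: Ifi27 had 77.5, 80.4 and 83.1 TPM, against 64.3, 85.8 and 79.5 TPM, and Ifitm3 had 77.7, 89.1 and 89.2 TPM, against 58.6, 66.1 and 74.3 TPM (adjusted p = 0.056).

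These 5 calls lay close to the threshold. None of the 5 was called without mix replicate 1 or without mix replicate 3, and no other gene of the 32 was. Only Ifit2 was called without mix replicate 2, and only Bst2 without control replicate 3. Without control replicate 2, of the 5 only Parp14 was called, and Ifit1 and Samhd1 were called in addition. Without control replicate 1, Bst2 was not called and Ifit1 was. Control replicate 1 stood lowest of its arm in 23 of the 29 genes at 1 TPM or more, with a median log2 ratio of −0.26 to the other 2 control libraries. Without number 1 of both arms, a setting chosen after seeing the data, 2 genes were lower and 8 higher, against 12.8% and 9.89% of the genes tested. With the replicate number as a block, 3 were lower and 12 higher, against 19.5% and 18.2%. The blocked fit added Samhd1 to the lower genes (−0.28, adjusted p = 0.0007) and Ifit1, Oasl1, Ddx58, Isg15, Herc6, Parp9, Rsad2, Ifitm3 and Ifi35 to the higher ones. Ifit1 had the largest change of the added genes, with 7.13, 8.76 and 7.66 TPM in the mix libraries, against 2.73, 6.08 and 4.84 TPM in the control mimic libraries, and a blocked log2 fold change of 0.82 ± 0.14 (adjusted p = 0.00037).

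In BV-2, the microglial line, 1 of the 39 genes fell and 1 rose, against 5.41% lower and 4.61% higher among the 14961 genes tested. The median log2 fold change was 0.04, against −0.0025 over all tested genes. Samhd1 fell, with 103, 107 and 104 TPM in the mix libraries, against 122, 129 and 125 TPM in the control mimic libraries (−0.32 ± 0.05, adjusted p = 0.0077). Rsad2 rose, with 690.2, 706 and 661 TPM, against 336, 508 and 364 TPM (0.69 ± 0.15, adjusted p = 0.02). The arms were separate for both. Rsad2 lost its call without any 1 of the mix libraries or without control replicate 3 (adjusted p = 0.065 to 0.089), and Samhd1 lost its call without mix replicate 1 (adjusted p = 0.066) or mix replicate 3 (adjusted p = 0.056). Cd274 had 29.4, 28.5 and 31.4 TPM with the mix, against 30.2, 31.3 and 27.6 TPM with the control mimic, and its arms overlapped (−0.07 ± 0.08, adjusted p = 0.63).

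One control library of BV-2 stood apart for these genes. Control replicate 2 was the highest of its arm in 31 of the 39 genes, with a median log2 ratio of 0.24 to the other 2, and its summed TPM was 8366, against 6256 and 6236 in control replicates 1 and 3. The mix libraries summed to 7714, 7932 and 7635 TPM and lay between these. The most abundant genes show it. Bst2 had 1423, 1441 and 1386 TPM in the mix libraries, against 1093, 1496 and 1074 TPM in the control mimic libraries (0.14 ± 0.13, adjusted p = 0.56). Isg15 had 1003, 1014 and 958 TPM, against 717, 1269 and 732 TPM (0.05 ± 0.20, adjusted p = 0.91). Ifitm3 had 615, 687 and 655 TPM, against 436, 777 and 404 TPM (0.19 ± 0.22, adjusted p = 0.66). In each of these the mix libraries lay between control replicate 2 and the other control libraries.

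Without control replicate 2, the BV-2 count was 2 lower and 18 higher of 39, against 10.6% and 9.05% of the genes then tested, and the median log2 fold change was 0.18. Ifi27 joined Samhd1 among the lower genes. The higher ones were led by adjusted p by Rsad2 (0.93 ± 0.05) and Mx1 (0.83 ± 0.07), followed by Ifitm3 (0.59 ± 0.06), Isg15 (0.41 ± 0.04) and Bst2 (0.35 ± 0.04). The count of higher genes in BV-2 thus depends on that library, which was singled out for its high values in these same genes. Leaving out a control library picked as high raises the log2 fold changes by that choice. The 18 is therefore no separate evidence of a rise.

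**Figure D4:**
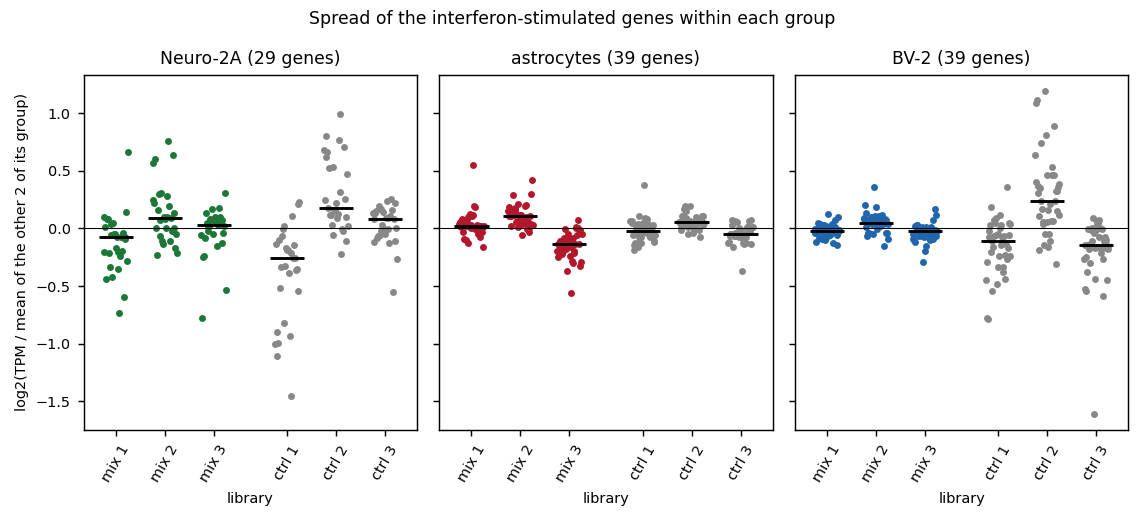
Log2 ratio of each gene's TPM in a library to the mean of the other 2 libraries of its group (vertical), for genes with a mean of at least 1 TPM, with mix libraries (coloured) left of control mimic libraries (grey) and a line at each median. BV-2 control replicate 2 has a median of 0.24 and Neuro-2A control replicate 1 a median of −0.26.

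The difference between cell types was tested as an interaction in a fit of all 18 libraries. The mix effect was lower in astrocytes than in Neuro-2A for 21 of the 39 genes and higher for none, against 1.86% lower among the 20308 genes tested. Ifit3, Ifit3b, Oas2, Oas3, Zbp1, Ifi44 and Ifi47, too low to be tested within Neuro-2A, entered this fit through the other cell types. Their Neuro-2A effects rest on few counts, and of them only Ifi44 was among the 21. The mix effect was lower in astrocytes than in BV-2 for 28 and higher for none, against 3.5% lower. At an unadjusted p under 0.05 it was higher for 0 and 1 genes in these comparisons with Neuro-2A and BV-2, and DESeq2 called 0 higher in both. The smallest adjusted p for astrocytes against Neuro-2A were those of Parp14, Dtx3l, Ddx58, Oasl1 and Herc6. Parp14 had a log2 fold change of −0.75 in astrocytes and 1.01 in Neuro-2A, a difference of −1.76 ± 0.22 (adjusted p = 0.00019). Against BV-2 they were those of Cd274, Ddx60, Mx1, Ifit2 and Cmpk2. Cd274 had a log2 fold change of −1.99 in astrocytes and −0.07 in BV-2, a difference of −1.91 ± 0.17 (adjusted p = 3.7e-06). Its fall in astrocytes was also larger than in Neuro-2A, by a log2 difference of −1.26 ± 0.21 (adjusted p = 0.0018), whereas for Ifit2 that difference did not pass (−0.81 ± 0.29, adjusted p = 0.14).

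Neuro-2A and BV-2 differed for 1 gene of 39, Parp14, against 1.45% higher among the genes tested. Its log2 fold change was 1.01 in Neuro-2A and 0.18 in BV-2, a difference of 0.84 ± 0.22 (adjusted p = 0.043). Parp14 did not pass in 9 of the 12 fits that each left out 1 library (adjusted p = 0.057 to 0.12), those without Neuro-2A mix replicate 2 or 3, Neuro-2A control replicate 1 or 3, any BV-2 mix library, or BV-2 control replicate 2 or 3. The next smallest adjusted p were those of Ifi44, Ifi27, Ifit1 and Cd274 (adjusted p = 0.075 to 0.10). With the replicate block 8 genes were higher in Neuro-2A than in BV-2 and 1 was lower, and without the filter on low counts 5 were higher and 1 lower. Those of the block included Ifit1, Ifi27 and Ifi44 on the higher side (adjusted p = 0.020, 0.010 and 0.037) and Cd274 on the lower (−0.65, adjusted p = 0.028). Shares of all genes by direction are not given for the block or without the filter. The numbers of genes there cannot be set against the 1.45%, which is of the main fit. Ifi44 rests on 18.3 counts over the 3 mix libraries of Neuro-2A, against 1 over the control mimic libraries.

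The genes around this group, in 4 lists, were compared in the same fits. Ifnb1, the gene of interferon-β, fell in astrocytes: it had 0.632, 1.54 and 0.799 TPM in the mix libraries, against 6.40, 5.10 and 4.92 TPM in the control mimic libraries (−2.47 ± 0.30, adjusted p = 3e-05). That rests on 15 counts in the mix arm and 91 in the control mimic arm. In BV-2 it had 2.57, 1.47 and 1.10 TPM, against 0.825, 1.77 and 2.08 TPM, with overlapping arms (adjusted p = 0.94), and in Neuro-2A it had no count in either arm. The interferon-α genes Ifna2, Ifna4 and Ifna5 were too low to be tested. In astrocytes they had 7, 3 and 0.5 counts in the mix arm, against 25.99, 32.6 and 11.7 in the control mimic arm, fewer with the mix for each gene.

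The receptor chains were measured in all 3 cell types. Ifnar1 did not pass in astrocytes, with 49.0, 46.9 and 43.7 TPM with the mix, against 47.2, 47.8 and 45.1 TPM with the control mimic (−0.07 ± 0.04, adjusted p = 0.23). It fell in Neuro-2A (−0.36 ± 0.07, adjusted p = 0.019) and in BV-2 (−0.27 ± 0.06, adjusted p = 0.028). Ifnar2 passed in none of the 3 cell types without a block (adjusted p = 0.27, 0.84 and 0.49 in Neuro-2A, astrocytes and BV-2), and with the block it was lower in Neuro-2A (−0.23, adjusted p = 0.014). Ifngr2, a chain of the interferon-γ receptor, rose slightly in astrocytes (0.14 ± 0.04).

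Of 8 genes of receptor signalling, 4 fell and none rose in astrocytes, against 20.6% lower and 19.7% higher among the genes tested, and the median log2 fold change was −0.13, against 0.0077 over all genes tested. Socs1, a feedback inhibitor of the receptor kinases, had 25.0, 30.5 and 25.4 TPM with the mix, against 42.8, 50.4 and 43.0 TPM with the control mimic (−0.81 ± 0.09, adjusted p = 1.5e-05), and Irf1 and Irf9 fell by less (−0.34 ± 0.05 and −0.13 ± 0.03). In Neuro-2A 0 of the 8 passed in edgeR, where 1 was lower and 1 higher at an unadjusted p under 0.05, and DESeq2 called 1 higher. With the replicate block, which called 19.5% of all genes lower and 18.2% higher, Jak1, a receptor kinase, was lower in Neuro-2A (−0.17, adjusted p = 0.0021) and Irf1 higher (0.29, adjusted p = 0.0024). In BV-2 Irf1 alone rose (0.41 ± 0.11, adjusted p = 0.044), against 4.61% of all genes tested.

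Of 12 genes of interferon induction, 5 fell and 2 rose in astrocytes, against the same 20.6% and 19.7%, with a median log2 fold change of −0.09. The lower ones were the sensors Ifih1, Dhx58 and Tlr3 (−0.94 ± 0.05, −0.67 ± 0.04 and −0.58 ± 0.05) and the transcription factors Irf7 and Irf3 (−0.35 ± 0.04 and −0.12 ± 0.04). Irf7, itself induced by interferon, had 370.1, 364 and 342 TPM with the mix, against 417, 469.8 and 428 TPM with the control mimic. The adaptor Traf3 and the DNA sensor gene Mb21d1 (cGAS) rose (0.16 ± 0.05 and 0.52 ± 0.17). Mb21d1 and the adaptor Mavs rose in Neuro-2A (0.70 ± 0.15 and 0.45 ± 0.11), 2 of 12 against 5.01% of all genes tested. With the block 5 of 12 were higher, against 18.2% of all genes tested. Those 5 were Mb21d1, Mavs, Ifih1, Irf3 and Traf3. In BV-2 Traf3 alone rose (0.29 ± 0.06), against 4.61% of all genes.

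A further list of 25 interferon-stimulated genes, none of them among the 39, fell in astrocytes for all 25 members, against 20.6% of the genes tested, with a median log2 fold change of −0.61. Iigp1, an immunity-related GTPase, had 348, 369 and 312 TPM with the mix, against 756, 771 and 712 TPM with the control mimic (−1.18 ± 0.05, adjusted p = 5e-09). Ifi204, Tor3a and Nlrc5, an activator of MHC class I genes, followed by adjusted p (−0.95 ± 0.04, −0.89 ± 0.04 and −0.86 ± 0.04). In Neuro-2A, 1 of 17 tested rose, the immunoproteasome subunit Psmb8 (0.28 ± 0.07), and 0 fell, also at an unadjusted p under 0.05 and by DESeq2. Over all genes tested there, 5.01% rose and 7.88% fell. With the block, 4 of the 17 were higher, Psmb8, Helz2, Uba7 and Nmi, against 18.2% of all genes tested. In BV-2, 4 of 25 rose, namely Trim30a, Uba7, Helz2 and Ifi203, and Znfx1 fell, against 4.61% higher and 5.41% lower among the genes tested. Without control replicate 2 the count was 16 higher and 1 lower, against 9.05% and 10.6% of the genes then tested.

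**Figure D5:**
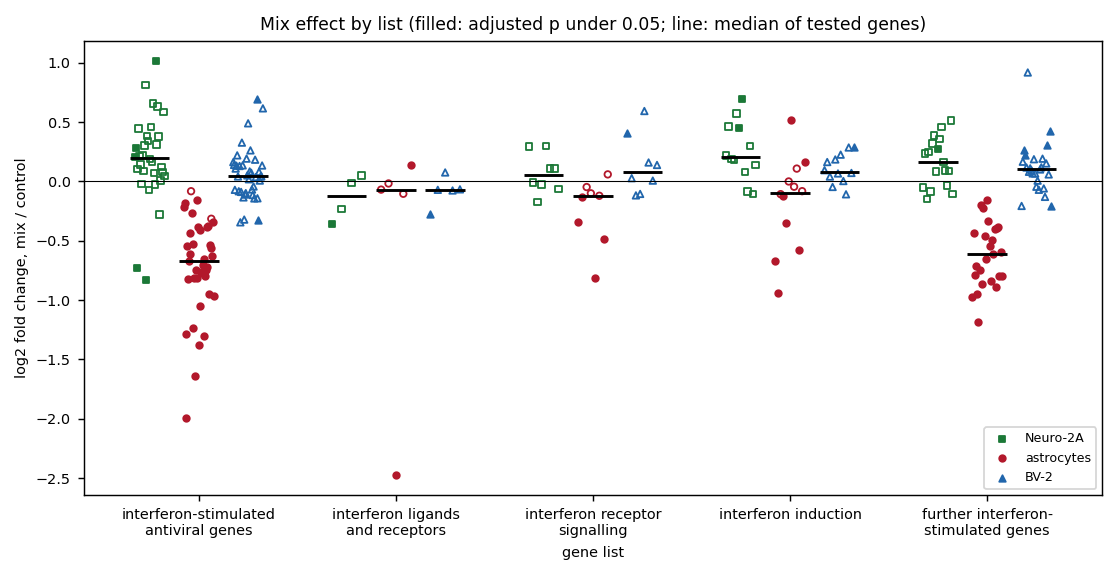
Log2 fold change of the mix over the control mimic (vertical) of each tested gene in the group and in 4 related lists (horizontal), in Neuro-2A (squares), astrocytes (circles) and BV-2 (triangles), filled where the adjusted p was under 0.05, with a line at each median. The astrocyte medians are −0.67 for the 39 genes and −0.61 for the further interferon-stimulated genes, and the lowest point is Ifnb1 at −2.47.

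Cell type markers were read beside the astrocyte result, in a fit where 20.6% of all genes tested were lower and 19.7% higher. The 12 microglial markers summed to 663 to 913 TPM in the mix libraries, against 660 to 747 TPM in the control mimic libraries. None of the 12 was lower and Cd68 was higher, and the most abundant, C1qa and C1qb, did not pass (0.09 ± 0.09 and 0.06 ± 0.09). The 8 astrocyte markers summed to 7237 to 7846 TPM in the mix libraries, against 9023 to 9510 TPM in the control mimic libraries, and 5 of the 8 fell. Fibroblast and pericyte markers summed to 1228 to 1477 TPM, against 1674 to 1870 TPM, with 2 of 7 tested lower and 2 higher. Most of that sum was Acta2, at a mean of 1500 TPM over both arms. The median log2 fold change of the 7 was 0.15, so the lower sum does not describe the list. The ependymal list summed to 999 to 1151 TPM, against 1093 to 1188 TPM, with 4 of 6 lower. Neuronal markers summed to 292 to 297 TPM, against 277 to 287 TPM, with 4 of 7 tested lower and 1 higher. The part of these marker differences in the result for the interferon-stimulated genes was not tested.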

How the data were processed

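The 18 libraries were stranded and poly(A)-selected, according to the labels' protocols. The submitters' processing notes name the build mm10, STAR 2.7.10b and Trimmomatic 0.39 and give none of them a role. A counting tool and an annotation release are not given in these sources. The authors deposited values that the file headers call raw read counts, and these are expected counts, since 35.6% to 42.3% of the genes in a library had a value that was not whole. They were rounded before testing. The authors also deposited log2 TPM, in which TPM of 1 or less were set to 0. TPM equalled the count times a factor of the gene and a factor of the library (largest deviation 1.2e-06 log2 over 8968 genes). TPM below that floor were therefore recomputed from the counts.

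Genes were filtered with filterByExpr (minimum count 10), scaled by TMM and tested with edgeR 4.0.16 in R 4.3.3 within each cell type. Interactions used all 18 libraries, and control levels the control mimic libraries. The scripts were tested on simulated data. Alternatives were upper quartile scaling, no filter, DESeq2 1.42.0, limma 3.58.1 on log2(TPM + 1) or (TPM + 0.1), the replicate block, a fit of all libraries and leaving out each library. Same-number libraries of Neuro-2A deviated together (correlations 0.587, 0.395 and 0.262), and the block lowered the coefficient of variation there from 8.64% to 3.17%. The labels do not state what these numbers mean. The main fits and interactions used no block. Blocked values within Neuro-2A, which take the numbers as pairs, are given where they change a call.

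3′ UTRs came from GENCODE on mm10. The 39 genes and the lists were chosen with earlier results of these data known. Values per library are given for genes past the threshold, at most 12 by adjusted p in a cell type, for the 3 most abundant in each cell type, and for a few genes chosen after their values were seen (Isg15, Rsad2, Bst2, Ifi27, Ifi47 and Trim25 in astrocytes, Ifit1 in Neuro-2A and Cd274 in BV-2). A few results that this rule would give are not reported here.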

Additional observations from a re-analysis of the deposited data

Results flagged for a closer look

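For 11 of the interaction contrasts among the 39 genes, taken as the genes with the smallest adjusted p that passed in each pair of cell types, the effect of the mix differed between cell types by edgeR's quasi-likelihood test. The log2 difference of the effect in astrocytes minus that in Neuro-2A was −1.96 for Oasl1, −0.98 for Ddx58, −0.65 for Herc6, −0.81 for Dtx3l and −1.76 for Parp14. For each of these the log2 fold change was below 0 in astrocytes and above 0 in Neuro-2A. Within Neuro-2A only Parp14 of them passed without the replicate block. Oasl1, Ddx58 and Herc6 passed there with the block, and Dtx3l did not. The difference in astrocytes minus BV-2 was −1.30 for Ifit2, −1.85 for Mx1, −1.03 for Ddx60, −1.38 for Cmpk2 and −1.91 for Cd274. These 10 differences passed under all 15 alternatives that were run. The difference in Neuro-2A minus BV-2 was 0.84 for Parp14, and it lost its call under 9 settings that each left out 1 library (0.58 to 0.86, adjusted p = 0.057 to 0.12).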

How the results depend on the processing

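No called value changed direction under the alternatives that were run. In astrocytes 33 of the 39 genes kept their side of the threshold under all 13 alternatives. The others were Adar, Isg15, Ifitm3, Bst2, Trim25 and Ifi27. Adar and Ifitm3 were no longer called by limma, and Isg15, Ifitm3 and Bst2 were not called in a fit of all 18 libraries. Trim25 and Ifi27 were added by the replicate block and in some fits that left out 1 library. Trim25 was also called without the filter on low counts (−0.32, adjusted p = 0.00024). All genes called in astrocytes numbered 7149, against 4535 in the fit of all libraries. None of the 5 calls in Neuro-2A and of the 2 in BV-2 held under every alternative. Neuro-2A numbers: all genes called were 2083, against 6101 with the replicate block, 3663 with numbers 2 and 3 only, 3271 in the fit of all libraries and 870 to 2268 leaving out 1 library. Lower genes of the 39 were 2, against 0 by limma with either pseudocount and 0 to 2 leaving out 1 library. Higher ones were 3, against 12 with the block, 5 by DESeq2, 8 with numbers 2 and 3 only, 8 in the fit of all libraries and 0 to 3 leaving out 1 library. BV-2 numbers: all genes called were 1498, and 434 to 2985 leaving out 1 library. Lower genes of the 39 were 1, against 2 without the filter, 3 with the block, 3 by DESeq2, 2 in the fit of all libraries and 0 to 2 leaving out 1 library. Higher ones were 1, against 2 by upper quartile scaling, 2 without the filter, 3 with the block, 4 by DESeq2, 4 and 3 by limma on log2(TPM + 1) and (TPM + 0.1), 4 in the fit of all libraries and 0 to 18 leaving out 1 library. In BV-2 the same-number correlations were −0.0051 to 0.128, and in astrocytes 0.0749 to 0.115. The labels number the arms alike without stating that they pair. Blocked values within these cell types are therefore given here, and for Trim25 and Ifi27 also beside their values. As a hint, each astrocyte mix library correlated best with the control library of its own number (highest with another, 0.00047), which BV-2 mix replicate 3 did not. The block lowered the astrocyte coefficient of variation from 3.52% to 2.02%, and gave Trim25 −0.33 (adjusted p = 1.1e-06) and Ifi27 −0.08 (adjusted p = 0.021). Interactions over all genes with the block numbered 1982 for astrocytes minus Neuro-2A (547 to 1015 leaving out 1 library), 2644 for astrocytes minus BV-2 (905 to 1808) and 1630 for Neuro-2A minus BV-2 (348 to 1060, and 1152 by DESeq2). For Neuro-2A minus BV-2, lower genes of the 39 were 0, against 1 without the filter, with the block and by DESeq2, and 0 to 1 leaving out 1 library. Higher ones were 1, against 5 without the filter, 8 with the block, 3 by DESeq2 and 0 to 4 leaving out 1 library. The control mimic levels kept 39 genes higher in astrocytes and 39 lower in Neuro-2A, and 28 to 32 higher in astrocytes than in BV-2, leaving out 1 library. The cause of these differences was not tested. Library totals limit genes under 1 TPM, of which 7 could not be tested in Neuro-2A.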
